A study of Mus musculus with 4 samples.

Results

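The genes described here are 32 genes of glucose breakdown and of the response to low oxygen, out of 22869 gene symbols measured in cultured mouse pancreatic ductal cells. They were chosen by name for their place in these pathways. The rule for membership uses no measured value, but earlier results of these data were known when they were chosen. Each gene is represented by its transcript with the highest mean count. The set holds the glucose transporter Slc2a1 with 15 glycolytic enzymes, 3 kinases that regulate glycolysis and pyruvate use, 4 genes of the oxygen sensor (2 subunits of hypoxia-inducible factor, HIF, and 2 prolyl hydroxylases) and 9 genes that low oxygen is known to induce.

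RNA was sequenced from primary ductal cells of adult C57BL/6 mice. The control group (n = 2) was HhexL/L, homozygous for floxed Hhex alleles, and the group labelled knockout (n = 2) was Sox9CreER;HhexL/L, which carries the same alleles and a tamoxifen-inducible Cre recombinase driven by Sox9, a ductal gene. The animals were littermates that had received no inducer, and all cultures, controls included, were given 500 nM 4-hydroxytamoxifen for 4 days before RNA was collected. No group carried the Cre without floxed alleles, so the Cre and the loss of Hhex cannot be told apart. The libraries are called control 1, control 2, labelled-knockout 1 and labelled-knockout 2.

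Hhex, a homeobox transcription factor and the targeted gene, stood at 24.85 CPM (counts scaled to library size) in control 1, 17.7 in control 2, 23.6 in labelled-knockout 1 and 39.0 in labelled-knockout 2. The fold change was 0.55 ± 0.27 (SE) on the log2 scale and the edgeR adjusted p was 0.734. The targeted transcript was therefore not lower in the libraries labelled knockout. The labels do not give the deleted exons, and reads from a shortened transcript would still be counted.

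Glycolysis splits glucose into pyruvate in the cytosol and yields ATP without oxygen, and lactate dehydrogenase then turns pyruvate into lactate. HIF raises the transcription of most glycolytic genes when oxygen is low. With oxygen present, prolyl hydroxylases mark its alpha subunits for destruction, so HIF activity is set mainly at the level of protein, and its target transcripts serve as the usual RNA readout. The pancreatic duct is an epithelium that secretes bicarbonate-rich fluid, and cultured epithelial cells commonly rely on glycolysis.

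The libraries held between 25257778 and 39582625 counts. The 11 ductal markers summed to between 12870 and 16760 CPM in the 4 libraries. Markers of most other cells were far lower: fibroblast and stellate markers summed to 6.83 to 15.4 CPM, endothelial markers to 3.05 to 10.8, acinar markers to 1.78 to 3.43 (with the amylase gene Amy2a5 at 0) and endocrine markers to 0.777 to 2.19. Lymphocyte markers summed to 0.857 to 2.66 CPM and erythroid markers to 0.616 to 1.42. The macrophage list summed to 128 to 214 CPM, most of it Cd14 (108.5 to 205 CPM), while the leukocyte marker Ptprc was at most 0.8015 CPM in each library. Labelled-knockout 2 stood apart by sex: Xist, expressed from the inactive X of females, was at 304 CPM there and at most 1.75 in the other libraries, and the 4 Y-linked genes measured were at or below 0.548 CPM in that library alone. The mesothelial list summed to 1586 to 4489 CPM, nearly all of it mesothelin, Msln, a surface protein. Labelled-knockout 2 had the highest Msln (4486 CPM against 1584, 2013 and 3139 in control 1, control 2 and labelled-knockout 1), and the highest sum of cell cycle genes (326 CPM against 241, 213.5 and 280). Labelled-knockout 1 had the highest ductal marker sum and the most counts.

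A common form of the core of the HIF-binding element, ACGTG, was searched on both strands (ACGTG or CACGT) in the 250 bases before each RefSeq start (GRCm38.p6). The other form of the core, GCGTG, was not searched. The palindrome CACGTG counts as a match on each strand. Of the 32 members, 29 had a promoter entry, and 16 of these (55.2%) held a match, against 18.5% of 27025 genes. Per start the shares were 46.3% of the members' 41 starts and 16.6% of 32851 starts. These shares describe letters and not binding. The 5 promoters below, each of a gene with a single listed start, are shown because the results turn on these genes: Car9 and Bnip3 differed most between the libraries labelled knockout among members above 10 CPM in control 1, Slc2a1 and Pfkl had the highest and lowest fold change, and Pgk1, a classical HIF target, has separate matches on both strands. They were chosen after their values were seen. Capitals mark the matches, and each sequence runs 5′ to 3′ on the gene's strand.
Car9 (chr4:43506776-43507025, plus strand): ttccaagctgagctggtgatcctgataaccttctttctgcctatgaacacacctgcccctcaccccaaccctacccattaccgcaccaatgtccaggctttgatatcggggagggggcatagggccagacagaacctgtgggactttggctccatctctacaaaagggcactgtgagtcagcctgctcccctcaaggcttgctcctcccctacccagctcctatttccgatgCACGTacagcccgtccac
Bnip3 (chr7:138909507-138909756, minus strand): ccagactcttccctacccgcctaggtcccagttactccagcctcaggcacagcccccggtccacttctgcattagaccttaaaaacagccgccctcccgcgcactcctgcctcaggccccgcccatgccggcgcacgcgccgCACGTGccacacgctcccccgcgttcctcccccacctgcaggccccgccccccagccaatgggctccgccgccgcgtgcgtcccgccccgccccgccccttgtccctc
Pgk1 (chrX:106186850-106187099, plus strand): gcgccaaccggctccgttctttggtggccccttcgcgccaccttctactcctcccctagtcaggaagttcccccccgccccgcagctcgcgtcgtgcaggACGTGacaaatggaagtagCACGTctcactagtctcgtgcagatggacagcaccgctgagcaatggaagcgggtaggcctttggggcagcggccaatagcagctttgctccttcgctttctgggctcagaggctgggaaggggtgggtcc
Slc2a1 (chr4:119108495-119108744, plus strand): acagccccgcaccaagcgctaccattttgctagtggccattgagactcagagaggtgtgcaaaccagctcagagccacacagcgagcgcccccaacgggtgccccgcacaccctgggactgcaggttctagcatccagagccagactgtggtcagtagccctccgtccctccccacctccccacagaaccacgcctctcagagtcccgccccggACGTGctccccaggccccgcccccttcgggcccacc
Pfkl (chr10:78009808-78010057, minus strand): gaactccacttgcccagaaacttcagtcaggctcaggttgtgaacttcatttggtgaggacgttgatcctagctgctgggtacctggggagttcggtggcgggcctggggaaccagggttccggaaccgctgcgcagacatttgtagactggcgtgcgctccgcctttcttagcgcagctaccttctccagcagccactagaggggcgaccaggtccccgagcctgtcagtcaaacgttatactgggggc

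The Car9 match begins 18 bases before the start and the Slc2a1 match 36 bases before it. The Bnip3 match is the palindrome CACGTG, and the Pgk1 matches begin 150 and 131 bases before the start. The Pfkl window holds no match to ACGTG or CACGT, the only letters searched. It does hold the other form of the core, GCGTG, which was not searched or marked in any window.

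The question of the comparison was whether these genes differ between cells labelled Hhex knockout and controls. No member passed the edgeR test: 0 of 32 had an adjusted p under 0.05, where 0.153% of all 20949 transcripts tested did. All 32 members passed the filter on low counts. In simulated counts edgeR called only 9% of transcripts changed 2-fold. That simulation gave every transcript the same biological coefficient of variation (0.2339) and changed transcripts picked at random. The rate for these members can differ from 9%, and the lack of a call does not show that a gene is unchanged. At an unadjusted edgeR p under 0.05 there were 5 members (Pfkl, Hk2 and Tpi1 lower, Slc2a1 and Eno1 higher), against 7.51% of all transcripts (4.7% higher and 2.81% lower). DESeq2 also called 0 members, where it called 1.67% of all transcripts with an adjusted p, and it had 5 members at an unadjusted p under 0.05, against 4.9% of all transcripts. Limma-trend on log2(RPKM + 1) and log2(RPKM + 0.1) called 0 members, against 0.971% and 0.843% of all transcripts. Each of these limma fits had 3 members at an unadjusted p under 0.05, against 8.74% and 8.56%. Without a filter on low RPKM limma-trend called 0% of transcripts and no member, with 2 members at an unadjusted p under 0.05, against 4.93%. Both libraries labelled knockout lay above both controls for 6 members (background 19.1%) and below both for 9 members (background 17%), and for 17 members the groups overlapped. The median log2 fold change was −0.08 over the 32 members and −0.01 over all transcripts tested. The libraries come from separate mice, so each of these p values sets the group difference against a spread between these 4 animals' cultures. That spread is estimated in part from other transcripts.

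**Figure D1:**
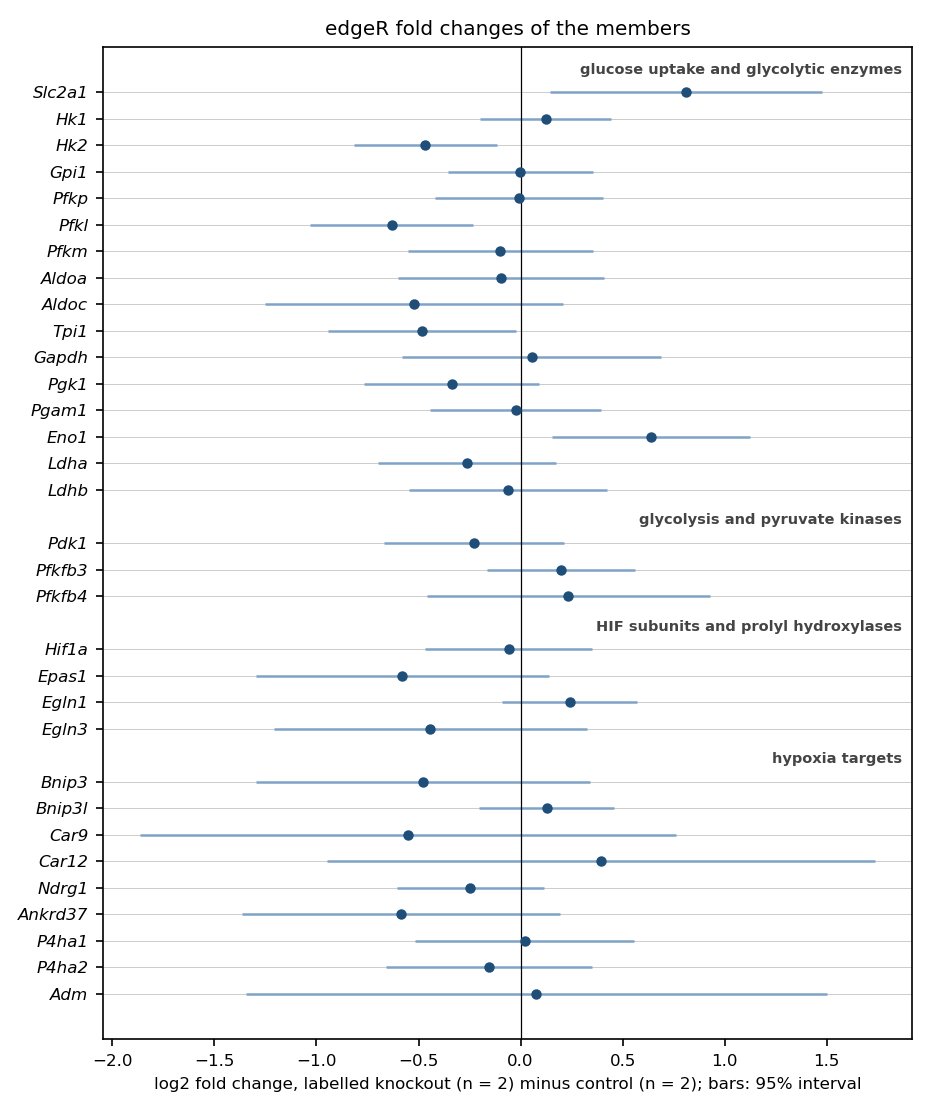
The horizontal axis gives the edgeR log2 fold change, libraries labelled knockout (n = 2) minus controls (n = 2), for each of the 32 genes grouped by role; points are estimates and bars 95% intervals. The intervals of Slc2a1 and Eno1 lie above 0 and those of Hk2, Pfkl and Tpi1 below it, and none of the 32 genes passed the adjusted threshold.

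Among the transporter and enzymes, 4 of 16 had a positive and 12 a negative fold change, with a median of −0.08 on the log2 scale. Slc2a1, the main basal glucose transporter of many cells, was at 213 and 189.5 CPM in control 1 and 2 and at 461 and 246 CPM in labelled-knockout 1 and 2. The groups did not overlap, but the high mean came mostly from labelled-knockout 1. The log2 fold change was 0.81 ± 0.28 (SE; 95% interval 0.15 to 1.48), with an edgeR adjusted p of 0.511. Without labelled-knockout 1 it was 0.26, and without labelled-knockout 2 it was 1.18, each a comparison of 1 mouse with 2.

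Hexokinases trap glucose in the cell as glucose 6-phosphate, and Hk2 is the inducible form. Hk2 was at 87.2 and 79.7 CPM in control 1 and 2 and at 64.9 and 55.8 in labelled-knockout 1 and 2, so that both libraries labelled knockout were below both controls. Its log2 fold change was −0.47 ± 0.15 (SE), with an edgeR adjusted p of 0.464. Hk1, the constitutive form, averaged 61.1 ± 2.9 CPM in controls and 66.45 ± 0.22 CPM in the libraries labelled knockout (SD, n = 2 each). Per length, Hk2 made up 52.7% and 48.8% of the summed hexokinase RPKM (reads scaled to transcript length and library size) in the controls and 42.5% and 38.7% in labelled-knockout 1 and 2. The difference was −10.1 percentage points, with an exact two-sided permutation p of 0.333, which is the smallest that 2 against 2 libraries can give.

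Phosphofructokinase carries out the committed step of glycolysis, and its liver-type subunit Pfkl had the smallest p of the set. Pfkl was at 226 and 207 CPM in control 1 and 2 and at 156 and 124 CPM in labelled-knockout 1 and 2. Every library labelled knockout was below every control, and the log2 fold change was −0.63 ± 0.17 (SE; 95% interval −1.03 to −0.23), a ratio of 0.645, with an edgeR adjusted p of 0.344. The other subunits did not share this pattern. The platelet-type Pfkp was at 80.4 ± 2.8 CPM in controls and 79.8 ± 16.8 in the libraries labelled knockout, and the muscle-type Pfkm at 55.3 ± 3.2 and 51.5 ± 13.03 (SD, n = 2 each). Pfkl therefore held a smaller part of the summed phosphofructokinase RPKM: 61.2% and 57.55% in the controls, 48.5% and 50.9% in labelled-knockout 1 and 2. That difference was −9.70 points, with the same exact permutation p of 0.333. The share of Pfkl was lower in both libraries labelled knockout than in either control, as was that of Hk2.

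The middle of the pathway cleaves fructose bisphosphate and interconverts the triose phosphates. Aldoa, the main aldolase, had the highest level of the set per length, with a mean of 231.5 RPKM, and stood at 497 and 509 CPM in control 1 and 2 and 553 and 388 in labelled-knockout 1 and 2. The libraries labelled knockout lay on either side of the controls (log2 fold change −0.10 ± 0.22, SE). Aldoc, the brain-type aldolase, was at 12.6 and 15.04 CPM in control 1 and 2 and at 12.6 and 6.39 CPM in labelled-knockout 1 and 2, low only in the latter. Tpi1, triose phosphate isomerase, was at 352 and 328 CPM in control 1 and 2 and at 282 and 204.5 CPM in labelled-knockout 1 and 2. Its groups did not overlap, and its log2 fold change was −0.48 ± 0.20 (SE), with an edgeR adjusted p of 0.626. Gpi1, glucose phosphate isomerase, averaged 69.3 ± 0.8 CPM in controls and 69.3 ± 9.0 in the libraries labelled knockout (SD, n = 2 each).

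The later steps make ATP and pyruvate. Pgk1, phosphoglycerate kinase, was at 58.1 and 57.65 CPM in control 1 and 2, 53.1 in labelled-knockout 1 and 38.3 in labelled-knockout 2, with a log2 fold change of −0.34 ± 0.18 (SE) at an edgeR adjusted p of 0.760. Its gene is X-linked, and labelled-knockout 2 is the library with Xist. That library was the lowest for 11 of the 16 transporter and enzyme genes, Pgk1 among them. The part of sex in the Pgk1 values was not tested. Eno1, alpha-enolase, was at 42.7 and 31.95 CPM in control 1 and 2 and at 66.5 and 49.7 CPM in labelled-knockout 1 and 2. Eno1 and Slc2a1 were the members whose 95% interval lay above 0, and for Eno1 the log2 fold change was 0.64 ± 0.21 (SE), with an edgeR adjusted p of 0.470. Pgam1, phosphoglycerate mutase, averaged 17.1 ± 0.9 CPM in controls and 16.8 ± 2.4 in the libraries labelled knockout (SD, n = 2 each).

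Lactate dehydrogenase regenerates NAD+ by reducing pyruvate to lactate. Ldha, the muscle-type subunit and a HIF target, was at 310.4 and 293 CPM in control 1 and 2, 286 in labelled-knockout 1 and 216 in labelled-knockout 2. Only labelled-knockout 2 was far from the other libraries, and the log2 fold change was −0.26 ± 0.19 (SE), with an edgeR adjusted p of 0.863. Ldhb, the heart-type subunit, ran the other way in that library: it was at 42.0 and 34.3 CPM in control 1 and 2, 30.2 in labelled-knockout 1 and 43.0 in labelled-knockout 2. Ldhb made up 16% and 14.1% of the summed lactate dehydrogenase RPKM in the controls, 12.9% in labelled-knockout 1 and 21.9% in labelled-knockout 2, so that the groups overlapped (exact permutation p = 1).

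Summed over the 15 enzymes, the level was 684 and 716 RPKM in the controls, 739.6 in labelled-knockout 1 and 528 in labelled-knockout 2. The group means were 699.7 ± 22.6 and 634 ± 149 RPKM (SD, n = 2 each), which overlap, and the exact two-sided permutation p was 1. Labelled-knockout 2 stood at 71.4% of labelled-knockout 1. Over all transcripts the deposited RPKM summed to 268072 and 317727 in control 1 and 2. In labelled-knockout 1 and 2 it summed to 339224 and 298758. The CPM of the single genes uses other totals, so the order of the libraries and the overlap are given for the RPKM scale only. In bulk samples, fewer cells of a type and less RNA per cell cannot be told apart.

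**Figure D2:**
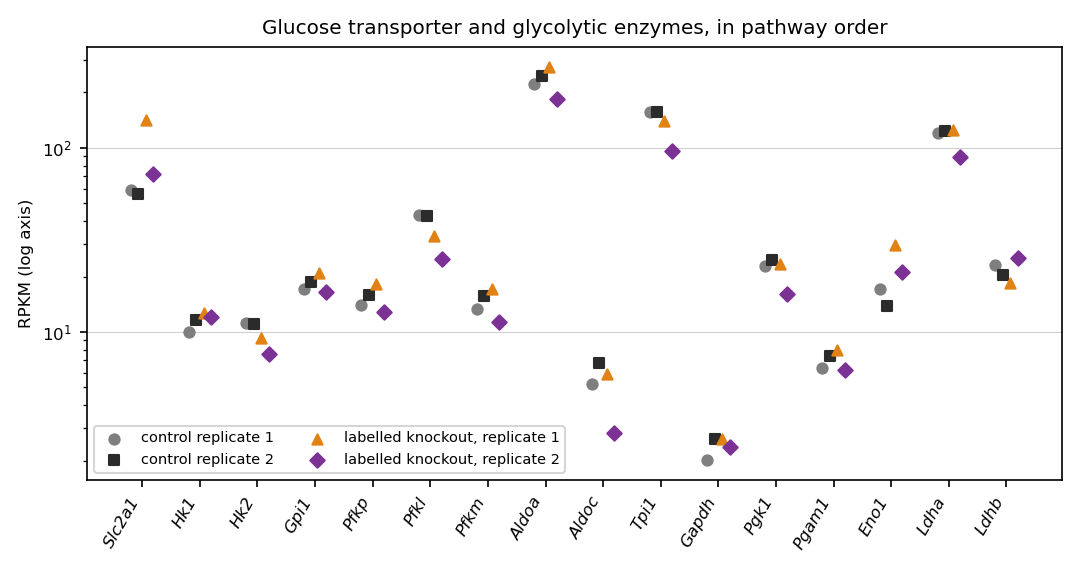
The vertical axis gives the authors' RPKM on a log scale for the transporter and the 15 enzymes in pathway order; each symbol is 1 library. Aldoa, Tpi1 and Ldha are the highest enzymes and Gapdh the lowest, and labelled-knockout 2 is the lowest symbol for 11 of the 16 genes on the CPM scale.

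Gapdh, glyceraldehyde phosphate dehydrogenase, is usually among the most abundant transcripts of a cell, but was the lowest enzyme here, at 3.50 and 4.22 CPM in control 1 and 2 and 4.07 and 3.90 CPM in labelled-knockout 1 and 2. These values come from 96 to 152 counts per library and a mean of 2.41 RPKM, against 137 RPKM for Tpi1, the preceding enzyme. Of the 50-base windows of its GENCODE transcript, 82.5% also occur in another gene, and 213 of the 222 genes that share them are pseudogenes. Next were Eno1 (72.2%, 9 other genes of which 8 are pseudogenes), Pgk1 (68.0%), Bnip3 (62.45%) and Pgam1 (41.5%). The shares were 13.5% for Aldoa, 7.51% for Tpi1, 16.65% for Ldha, 1.74% for Slc2a1, 0.0543% for Pfkl and 0% for Hk2. How reads with several matches were counted is not given in the sources used here, so the levels of Gapdh, Eno1, Pgk1, Bnip3 and Pgam1 are uncertain, and the part of shared sequence in them was not tested.

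**Figure D3:**
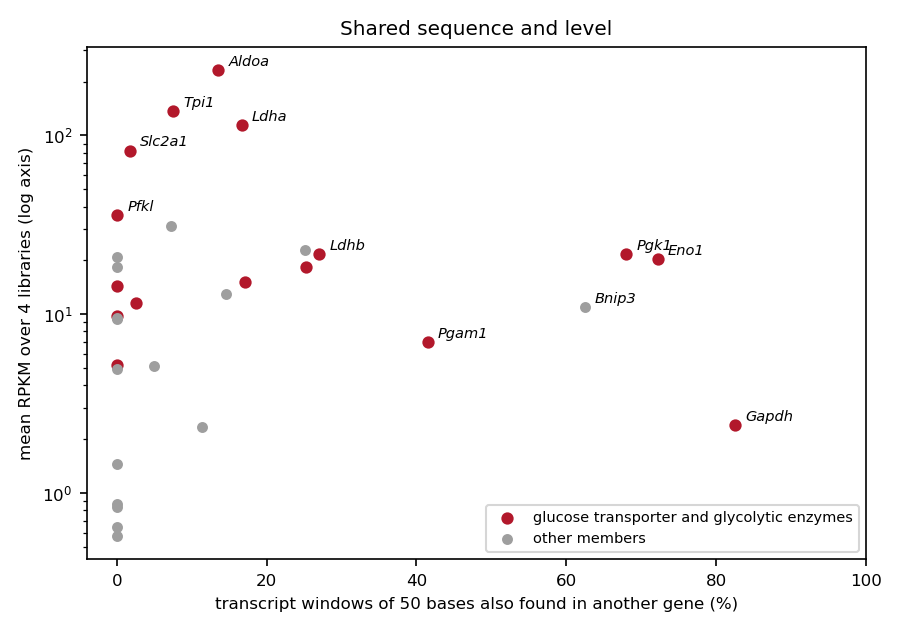
The horizontal axis gives the percentage of a transcript's 50-base windows that also occur in another gene, and the vertical axis the mean RPKM over the 4 libraries on a log scale; each point is 1 of the 32 genes. Gapdh lies at the far right and low, with 82.5% of its windows shared, while Aldoa, Tpi1 and Ldha share 16.65% or fewer.

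The 3 kinases steer flux through and out of glycolysis. Pdk1, which inhibits pyruvate dehydrogenase and so keeps pyruvate from the mitochondrion, was at 71.05 and 66.8 CPM in control 1 and 2, 68.95 in labelled-knockout 1 and 48.8 in labelled-knockout 2 (log2 fold change −0.23 ± 0.19, SE; edgeR adjusted p 0.892). Pfkfb3 makes a regulatory fructose bisphosphate, distinct from the one that aldolase cleaves, that activates phosphofructokinase. Pfkfb3 was at 31.1 and 31.8 CPM in control 1 and 2 and at 39.1 and 33.0 CPM in labelled-knockout 1 and 2 (log2 fold change 0.20 ± 0.15, SE; edgeR adjusted p 0.883). Pfkfb4, a related enzyme, was at 5.465 and 6.45 CPM in control 1 and 2, 8.625 in labelled-knockout 1 and 5.23 in labelled-knockout 2 (edgeR adjusted p 0.927). Pdk1 was low in labelled-knockout 2 alone and Pfkfb4 high in labelled-knockout 1 alone, while for Pfkfb3 both libraries labelled knockout exceeded both controls by a margin within the interval of the test.

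Of the oxygen sensor, Hif1a, the ubiquitous alpha subunit, was well expressed at 196 and 207 CPM in control 1 and 2 and 218 and 169 in labelled-knockout 1 and 2. The libraries labelled knockout lay on either side of the controls, with a log2 fold change of −0.06 ± 0.17 (SE) at an edgeR adjusted p of 0.967. Epas1, which encodes the alpha subunit typical of endothelium, was low, at 5.61 and 4.22 CPM in control 1 and 2 and 2.76 and 3.90 CPM in labelled-knockout 1 and 2. Both of the latter were below both controls, with an edgeR adjusted p of 0.754. The summed endothelial markers were at 10.8 and 3.97 CPM in control 1 and 2 and at 3.05 and 7.74 CPM in labelled-knockout 1 and 2. They too were highest in control 1 and lowest in labelled-knockout 1, but unlike Epas1 they were higher in labelled-knockout 2 than in control 2. The fibroblast and stellate, endocrine, lymphocyte and erythroid sums were also highest in control 1 and lowest in labelled-knockout 1. The acinar and macrophage sums were not, so this order was not particular to endothelial markers. The part of other cells in the Epas1 values was not tested. Per length, Hif1a had a mean of 31.3 RPKM.

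Egln1, the main prolyl hydroxylase under normal oxygen, was at 40.1 and 41.5 CPM in control 1 and 2 and at 46.1 and 50.3 CPM in labelled-knockout 1 and 2. Egln3, a hydroxylase that HIF itself induces, was at 3.68 and 3.45 CPM in control 1 and 2 and at 2.12 and 3.19 CPM in labelled-knockout 1 and 2. Egln1 was above and Egln3 below the controls in both libraries labelled knockout, with edgeR adjusted p values of 0.799 and 0.871. None of these 4 genes passed the test at the unadjusted level either.

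The 9 hypoxia targets had a median log2 fold change of −0.15, with 4 positive and 5 negative estimates, and none had an unadjusted p under 0.05. Car9, which encodes a cell-surface carbonic anhydrase and is among the most HIF-dependent transcripts known, was at 19.6 and 12.4 CPM in control 1 and 2, 17.6 in labelled-knockout 1 and 3.97 in labelled-knockout 2. Only labelled-knockout 2 was low, and the log2 fold change of −0.55 ± 0.56 (SE) had an edgeR adjusted p of 0.9003. Bnip3, a mitochondrial receptor for mitophagy, was at 33.7 and 25.75 CPM in control 1 and 2, 29.5 in labelled-knockout 1 and 12.97 in labelled-knockout 2. Its pattern followed Car9, with a log2 fold change of −0.48 ± 0.35 (SE) at an edgeR adjusted p of 0.871. Bnip3l, its relative, was at 89.5 and 97.0 CPM in control 1 and 2 and 105.0 and 98.6 CPM in labelled-knockout 1 and 2, and was not low in labelled-knockout 2.

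P4ha1 and P4ha2 encode the catalytic subunits of the collagen prolyl hydroxylases. P4ha1 was at 99.6 and 96.0 CPM in control 1 and 2, 123 in labelled-knockout 1 and 75.25 in labelled-knockout 2, and P4ha2 at 71.9 and 61.75 CPM in control 1 and 2, 72.5 in labelled-knockout 1 and 47.45 in labelled-knockout 2. For both genes labelled-knockout 2 was the lowest of the 4 libraries. Labelled-knockout 1 was clearly the highest for P4ha1, with group means of 97.8 ± 2.5 CPM in controls and 99.15 ± 33.8 in the libraries labelled knockout, but close to control 1 for P4ha2, with means of 66.8 ± 7.2 and 59.99 ± 17.7 CPM (SD, n = 2 each). Ndrg1, a stress-responsive gene, was at 49.3 and 58.1 CPM in control 1 and 2 and 47.4 and 43.1 in labelled-knockout 1 and 2, with groups that did not overlap (edgeR adjusted p 0.823). Ankrd37, a short ankyrin-repeat gene, was at 3.72 and 3.04 CPM in control 1 and 2 and at 2.60 and 1.87 CPM in labelled-knockout 1 and 2, with an edgeR adjusted p of 0.782.

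Car12, another surface carbonic anhydrase, was at 3.90 and 3.20 CPM in control 1 and 2, 7.31 in labelled-knockout 1 and 1.81 in labelled-knockout 2. It thus bracketed the controls, like Adm, the gene of the vasodilator peptide adrenomedullin. Adm was at 0.984 and 1.34 CPM in control 1 and 2, 1.77 in labelled-knockout 1 and 0.581 in labelled-knockout 2, from 27, 33, 66 and 18 counts. The summed level of the 9 targets was 96.3 and 97.2 RPKM in the controls, 113 in labelled-knockout 1 and 73.15 in labelled-knockout 2. As for the enzymes, this order is given for the RPKM scale only.

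The libraries labelled knockout differed from each other more than the controls did. They lay further apart than the controls for 28 of the 32 members, against 11933 of the 20949 transcripts tested. The median difference between the libraries labelled knockout was 0.47 on the log2 scale for the members and 0.29 over all transcripts, and that between the controls was 0.12 and 0.21. Labelled-knockout 2 was the lowest of the 4 libraries for 22 of 32 members (background 24.7%), among them 11 of the 16 transporter and enzyme genes and 8 of the 9 hypoxia targets, Bnip3l being the exception. Labelled-knockout 1 was the highest for 15 of 32 (background 29%). These counts describe 1 library each and were made after the values were seen, so they carry no test. Labelled-knockout 2 is the library that differs in sex and has the highest Msln and cell cycle sum, and the part of these in the low values was not tested.

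**Figure D4:**
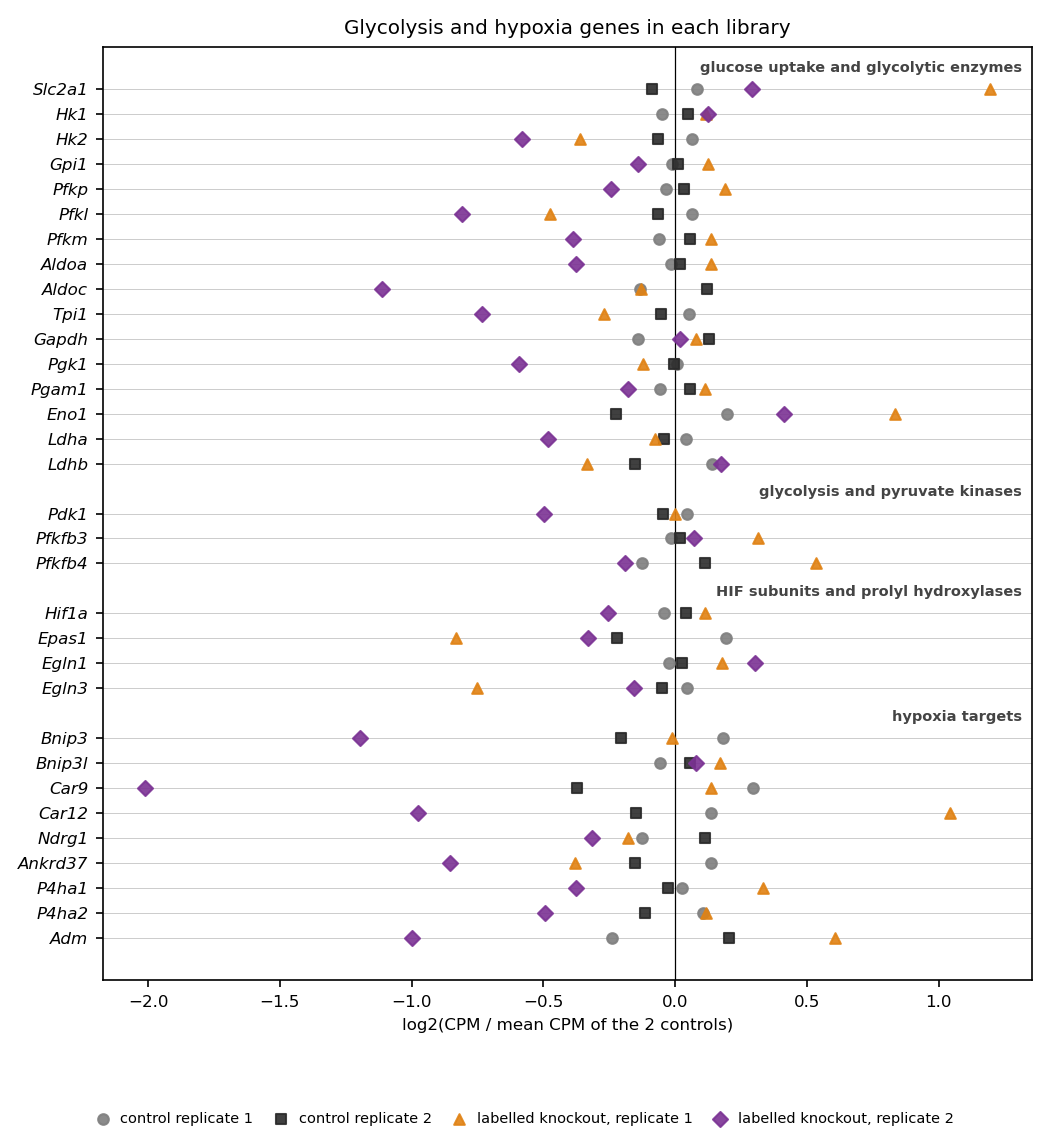
The horizontal axis gives log2 of each library's CPM over the mean CPM of the 2 controls for the 32 genes, grouped by role; each symbol is 1 library. Labelled-knockout 2 is the leftmost symbol for 22 of the 32 genes, and furthest left for Car9, while labelled-knockout 1 is furthest right for Slc2a1.

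Each library labelled knockout was also left out in turn. Without labelled-knockout 1, edgeR called 10 members, all lower in the remaining library: Car9 (log2 fold change −2.05, adjusted p 1.37e-14), Bnip3 (−1.23), Aldoc (−1.14), Pfkl (−0.84), Tpi1 (−0.76), Pgk1 (−0.62), Hk2 (−0.61), Pdk1 (−0.53), P4ha2 (−0.52) and Ldha (−0.51). The background in that fit was 7.86% of 22176 transcripts. Without labelled-knockout 2, edgeR called 4 members: Slc2a1 (1.18), Car12 (1.02, adjusted p 0.00383) and Eno1 (0.81, adjusted p 6.19e-06) higher and Pfkl (−0.49, adjusted p 0.0389) lower. The background there was 8.69% of 21986 transcripts. Pfkl was the member called in both fits. In such a fit the lone library is assumed to vary as the controls do, so these calls compare 1 mouse with 2.

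Other genes of these pathways were counted from lists of known pathway genes. Of 34 other glycolysis genes 33 were tested and edgeR called 0, with 16 positive and 17 negative estimates and 3 at an unadjusted p under 0.05, a share near the background of 7.51%. Slc16a3, the lactate exporter of glycolytic cells and a HIF target, was at 23.9 and 11.9 CPM in control 1 and 2 and at 4.85 and 3.19 CPM in labelled-knockout 1 and 2. Both libraries labelled knockout were low, and the log2 fold change was −2.15 ± 0.37 (SE), with an edgeR adjusted p of 0.121 and a DESeq2 adjusted p of 1.82e-06. Limma-trend also called it, at adjusted p values of 0.007725 and 0.009506 with pseudocounts of 1 and 0.1 after a filter on low RPKM, but not without that filter (0.964), so this call depends on the tool. Pkm2, the pyruvate kinase gene, was at 1029 and 1003 CPM in control 1 and 2 and at 1136 and 840.5 CPM in labelled-knockout 1 and 2. Its level was highest in labelled-knockout 1 and lowest in labelled-knockout 2 (edgeR adjusted p 0.984).

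Pdk4, a kinase of pyruvate dehydrogenase that rises in fasting, was at 2.44 and 2.51 CPM in control 1 and 2 and at 3.56 and 5.23 CPM in labelled-knockout 1 and 2 (edgeR adjusted p 0.616). Pdha1, a subunit of pyruvate dehydrogenase and X-linked, was at 203 and 231.5 CPM in control 1 and 2 and at 319 and 261 CPM in labelled-knockout 1 and 2 (edgeR adjusted p 0.644). For both genes the libraries labelled knockout lay above both controls.

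Of 44 other hypoxia genes 41 were tested and edgeR called 0, with 19 positive and 22 negative estimates. At an unadjusted edgeR p under 0.05 there were 3 of the 41 higher, against 4.7% of all transcripts, and 8 lower, against 2.81%. Both libraries labelled knockout lay below both controls for 14 of the 41 (background 17%) and above both for 8 (background 19.1%), and for 19 the groups overlapped. Lox, the collagen cross-linking enzyme, was at 5.50 and 16.3 CPM in control 1 and 2 and at 121 and 62.6 CPM in labelled-knockout 1 and 2, a log2 fold change of 3.08 ± 0.49 (SE) at an edgeR adjusted p of 0.0969. Hilpda, a lipid droplet protein gene listed under its older symbol, was at 63.1 and 71.0 CPM in control 1 and 2 and at 129.6 and 118 CPM in labelled-knockout 1 and 2, a log2 fold change of 0.88 ± 0.15 (SE) at an edgeR adjusted p of 0.111. For both genes the groups did not overlap, but their calls depended on the tool. DESeq2 called both, at adjusted p values of 0.0268 and 0.00128. Limma-trend after the filter called Lox, at adjusted p values of 0.00142 and 0.00312 with pseudocounts of 1 and 0.1, but not Hilpda (0.113 and 0.1255), and without the filter it called neither (0.964). Robust estimation in edgeR gave adjusted p values of 0.537 for Lox and 0.0765 for Hilpda. Bhlhe41, a transcriptional repressor, was at 20.15 and 14.2 CPM in control 1 and 2 and at 9.48 and 9.0 CPM in labelled-knockout 1 and 2 (log2 fold change −0.90 ± 0.22, SE; edgeR adjusted p 0.271). The 8 genes with a lower estimate at the unadjusted level were Bhlhe41, Stc2, Ak4, Stc1, Edn1, Ddit4, Mif and Rcor2, the last 7 named after their values were seen, and for each of the 8 both libraries labelled knockout lay below both controls. Of these, Ak4, a mitochondrial adenylate kinase, had the lowest log2 fold change: it was at 20.04 and 8.555 CPM in control 1 and 2 and at 6.40 and 2.42 CPM in labelled-knockout 1 and 2, a difference of −1.68 with an edgeR adjusted p of 0.412. The 3 with a higher estimate were Lox, Hilpda and Vegfa, a vascular growth factor gene named after its values were seen, and for each both libraries labelled knockout lay above both controls. Labelled-knockout 2 was the lowest library for 9 of the 33 other glycolysis genes and 18 of the 41 other hypoxia genes, against 22 of the 32 members.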

How the data were processed

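RNA was sequenced in 4 libraries of primary ductal cells, from TruSeq libraries of total RNA per the labels' protocols. The authors deposited raw counts and RPKM values, with RefSeq transcripts as features. The genome (mm9) and edgeR are named in the submitters' processing notes, without a version; the aligner, counter, strand setting and the library total behind RPKM are not given in the sources used here.

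Counts were tested in R 4.3.3 with edgeR 4.0.16 (TMM, filterByExpr with a minimum count of 10 and a total of 15, quasi-likelihood test, Benjamini-Hochberg over 20949 transcripts, threshold 0.05), labelled knockout minus control. CPM uses TMM-scaled totals; RPKM is as deposited. Intervals are 95%. The steps were tested on simulated data with 100 transcripts changed 2-fold and 100 changed 4-fold. There edgeR called 9% and 85% of these, and 4 unchanged transcripts. Shares and sums used exact permutation over the 6 arrangements.

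Alternatives were other scaling factors, filters, DESeq2 1.42.0, limma-trend 3.58.1 on log2(RPKM + 1) or log2(RPKM + 0.1), transcripts merged or reduced per gene, omission of X and Y genes, and each library left out; edgeR's legacy deviance was added after the data were seen.

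Promoters came from RefSeq (GRCm38.p6) and transcript windows from GENCODE release M21; no mm9 coordinate was used. Members and lists were chosen with earlier results of these data known. The genes given in every library were, in each role group, those with the smallest p and the 3 of highest mean RPKM, and from each list of other pathway genes the 3 of smallest p. Car12, Adm, Aldoc, Gapdh, Ldhb and Pkm2 were added after their values were seen.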

Additional observations from a re-analysis of the deposited data

How the results depend on the processing

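No member was called under any of the 14 alternatives that kept all 4 libraries (13 for the X-linked Pgk1), but the count over all transcripts moved from 32 to 5 with upper-quartile factors or library totals, 4 with a 1 CPM filter, 306 with DESeq2, 64 with robust estimation, 159 and 138 with limma-trend on log2(RPKM + 1) and log2(RPKM + 0.1), 0 with limma-trend without a filter, 2 with 1 transcript per gene and 14 with counts summed per symbol. Leaving out 1 library gave 0 to 1911 transcripts and 0 to 10 members, and list medians of −0.33 to 0.0803 (transporter and enzymes), −0.21 to 0.30 (kinases), −0.34 to −0.21 (HIF subunits and hydroxylases) and −0.885 to 0.11 (hypoxia targets). The median over all transcripts lay between −0.09 (library totals) and 0.09 (log2(RPKM + 0.1)), against −0.01. The Aldoc share of aldolase RPKM differed by −0.70 points, or −0.232 when RPKM was summed over transcripts. Estimates close to 0 changed sign: P4ha1 with upper-quartile factors (−0.0387), library totals (−0.0664), a 1 CPM filter (−0.0101) and 1 transcript per gene (−0.0027); Gapdh with library totals (−0.0228); Adm with library totals (−0.0032) and log2(RPKM + 0.1) (−0.066); Gpi1 with DESeq2 (0.0178), log2(RPKM + 1) (0.0585), log2(RPKM + 0.1) (0.061), summed counts (0.0076) and no X and Y genes (0.0032); Pfkp with DESeq2 (0.0113), log2(RPKM + 1) (0.0419) and log2(RPKM + 0.1) (0.0434); and Pgam1 with the RPKM scales (0.032 and 0.0353). On the RPKM scales Gpi1, Pfkp and Pgam1 stayed below the median of all transcripts after the filter (0.0754 and 0.091). Leaving out 1 library also turned the sign of log2 fold changes, with these ranges: Gpi1 −0.1671 to 0.1076, Pfkp −0.2679 to 0.1731, Pfkm −0.4114 to 0.1191, Aldoa −0.4016 to 0.1199, Gapdh −0.082 to 0.2261, Pgam1 −0.2043 to 0.0945, Ldhb −0.3574 to 0.1436, Pfkfb4 −0.2104 to 0.5211, Hif1a −0.28 to 0.0952, Car9 −2.0491 to 0.1056, Car12 −1.007 to 1.0166, P4ha1 −0.4053 to 0.3131, P4ha2 −0.5229 to 0.0984 and Adm −1.0097 to 0.5981. The cause of these changes was not tested. No paired analysis was possible because the labels tie no control library to a library labelled knockout, and the replicate numbers used here only name the libraries within a group. Adm, from 18 to 66 counts per library, has the widest interval of the members, and 2 libraries per group limit every comparison.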
